A study of Mus musculus with 9 samples.

Results

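H19, Meg3, Rian, Mirg, Dlk1, Peg3, Plagl1, Mest, Cdkn1c and Grb10 are imprinted genes that take part in the control of embryonic growth. All 10 are rows of a count table of 23337 gene symbols, and they were taken by name, with earlier results of these data known. They were followed across 3 groups of immortalized mouse embryonic fibroblasts (MEFs) that lack C/EBPβ, a transcription factor of the basic leucine zipper class. Cebpb-ko MEFs of the mixed strain background C57BL/6 x 129 were stably transfected with a plasmid for rat C/EBPβ-LAP (LAP), the long isoform that activates transcription, with a plasmid for rat C/EBPβ-LIP (LIP), the short isoform without the activation domains, or with the empty vector (EV). The Cebpb knockout, the immortalization and Zeocin selection were common to all groups, and the isoform plasmids were built on pcDNA3 or pSV2Zeo, so that the isoforms were overexpressed. RNA of 3 libraries per group was sequenced and reads were counted per gene. The sources used here do not say whether the libraries of a group came from separate cultures, clones or passages, so p-values measure only the spread between these samples, which may be technical.

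An imprinted gene is expressed mainly from the copy inherited from a single parent, because DNA methylation set in the egg or the sperm marks the other copy. Many genes expressed from the paternal copy, such as Dlk1, Peg3, Plagl1 and Mest, act in growth of the embryo and placenta, while several expressed from the maternal copy, such as Cdkn1c, Grb10 and the noncoding gene H19, restrain it. A number of them are high in fetal tissues and in cultured embryonic cells and decline after birth. Counts per gene add both copies, so no statement on imprinting itself can be drawn from them.

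Libraries held 24839139 to 33522082 reads assigned to genes. Levels are given as CPM (counts scaled to a common library size) after TMM normalization, whose factors lay between 0.949 and 1.10, and 3 counts, the floor used here, stood for 0.0895 to 0.121 CPM. These floors and the intervals of shares below cover only counting error, because copies made by PCR cannot be recognised without molecular identifiers. Between libraries of a group, Pearson's r of log2 CPM across genes was 0.987 to 0.994 in EV, 0.975 to 0.984 in LAP and 0.965 to 0.976 in LIP. The summed level of 9 fibroblast markers was 35240 to 39700 CPM in EV, 29425 to 43146 CPM in LAP and 17008 to 30241 CPM in LIP. It was thus lower in every LIP library than in any EV library, while 0 of the 9 markers passed the edgeR test described below in LIP against EV and 5 were lower at an unadjusted p under 0.05, and whether this had a part in the results below was not tested. Krt14, a keratin, had 82.1 to 244 CPM and Tubb3, a neuronal tubulin, 54.4 to 97.8 CPM over all libraries, and both overlapped between groups. Of markers of other cell types, Pecam1, Ptprc, Itgam, Myod1, Myf5, Ttr, Pou5f1 and Neurod1 had 0 counts in all libraries. Others of the same lists were counted in every library, among them Cd68 (68 to 250 counts), Csf1r (21 to 76) and Kdr (31 to 90). So were Cdh1 (24 to 111), Pax7 (6 to 124), Des (19 to 63) and Nanog (46 to 88). The markers at 0 thus do not show that these cell types were absent. Mouse Cebpb, the gene knocked out, had 684 to 1041 counts in EV, 709 to 1077 in LAP and 816 to 985 in LIP. The EV cells carried the empty vector, without a rat isoform. Whether the reads in LAP and LIP are of the remaining locus or of the rat plasmids was not tested. These counts do not check the labels. In bulk RNA, fewer cells with a transcript and less transcript per cell cannot be told apart.

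Of the 10 genes, 7 were counted well enough to be followed: the noncoding RNAs H19, Meg3, Rian and Mirg, and the protein-coding Peg3, Plagl1 and Grb10. Dlk1, a transmembrane ligand that keeps preadipocytes undifferentiated, had 0, 0 and 2 counts in EV, 5, 0 and 1 in LAP and 0 in every LIP library. Mest, a member of the alpha/beta hydrolase fold family, had 4, 4 and 2 counts in EV, 3, 2 and 0 in LAP and 3, 3 and 11 in LIP. Cdkn1c, the cyclin-dependent kinase inhibitor p57, was listed at 0 in all 9 libraries. A count of 0 allows up to the floor of 3 counts given above. These low values need care, because some genes with several annotated transcripts had few counts in this table. Among genes that dividing cells use, Uhrf1, which has 4 curated RefSeq transcripts, was listed at 0 in every library, and Dnmt1, which has 5, had 3 to 11 counts. Gapdh with 2 transcripts had 2425 to 4539 counts, against 65537 to 140834 for Actb and 12256 to 18799 for Tpi1, which have 1 each. The 57 ribosomal protein genes with 1 transcript had a median of 31892 counts per library, and the 19 with 2 or more had 2868. Over all protein-coding genes the order was the opposite. The median was 18.9 counts for the 10897 with 1 transcript and 72.5 for the 7330 with 2 or more. Of these, 6125 and 3897 averaged under 100 counts, so many genes with few reads enter these medians. They cannot show whether reads of genes with several transcripts were lost. The genes named in these comparisons were chosen after their values were seen. Dlk1 has 5 curated transcripts, Plagl1 has 4, Meg3, Mest, Cdkn1c and Grb10 have 3, H19 has 2, and Rian, Mirg and Peg3 have 1, all in the current RefSeq and not in the older annotation used for counting. How reads shared by transcripts were counted was not tested. Dlk1, Mest and Cdkn1c are described by their few counts, and no fold change of the main test is given for them.

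Compared per length, as CPM per kilobase of annotated exon, Peg3 was the highest in EV with 10.6 ± 2.65 (SD, n = 3), followed by Rian with 6.07 ± 0.261, Grb10 with 3.83 ± 0.401, Meg3 with 2.43 ± 0.631, Mirg with 2.09 ± 0.524, Plagl1 with 1.76 ± 0.105 and H19 with 0.374 ± 0.420. In EV, the libraries of Meg3 and Mirg, and those of Mirg and Plagl1, overlapped in this order, and the other neighbours did not. In LIP, Peg3 reached 17.6 ± 2.43 and stood above Rian with 4.76 ± 3.47 in every library, while all lower neighbours overlapped. In LAP, all neighbours in the order overlapped, starting with Peg3 at 9.25 ± 1.64 and Rian at 9.23 ± 5.37. For Rian the exons of all its GENCODE transcripts were taken, since none was linked to RefSeq, and how reads shared by transcripts were counted, which was not tested, limits these comparisons between genes.

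**Figure D1:**
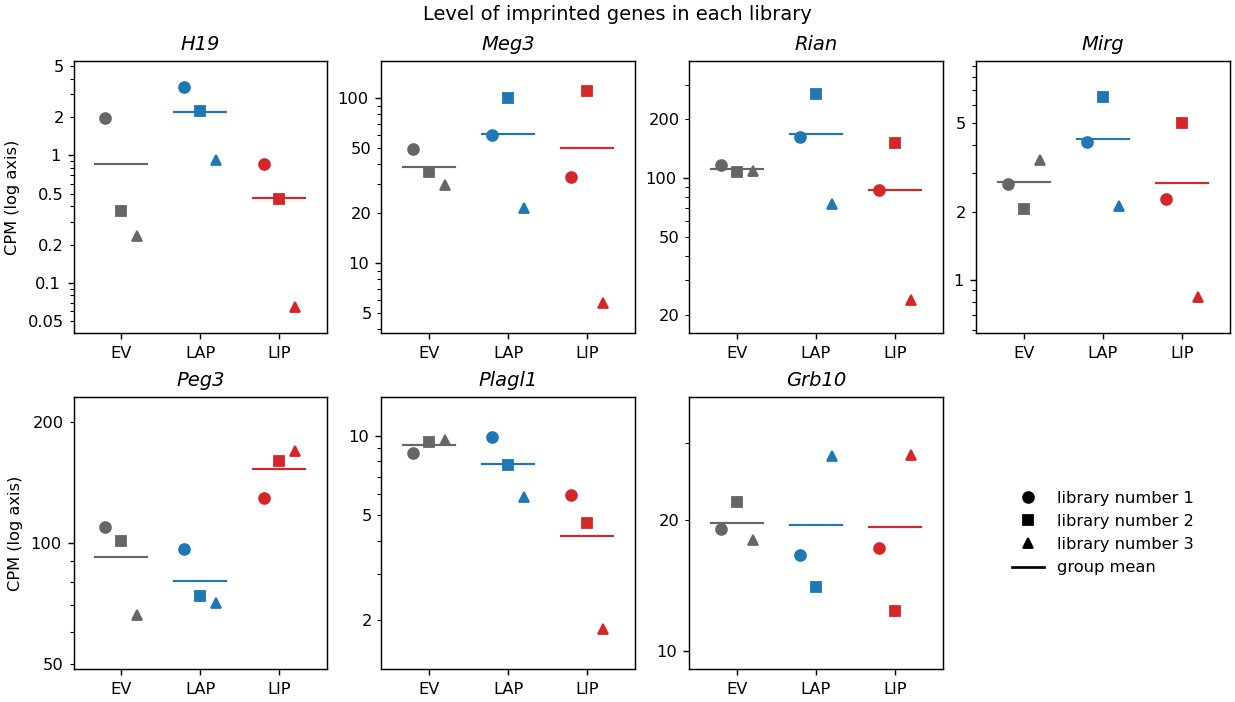
Level in CPM (log axis) of the 7 genes with more than a few counts, in each EV, LAP and LIP library, with symbols for the library number and lines for group means. Peg3 was higher in all LIP libraries (129 to 169 CPM) than in any other library, Plagl1 was lower in all LIP libraries than in any EV library, and Meg3, Rian and Mirg ranged widely within LAP and LIP.

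Meg3, Rian and Mirg lie one after the other on the plus strand of chromosome 12, within the Dlk1-Dio3 imprinted domain. They are transcribed from the maternal chromosome and are thought to be parts of a long common transcript. On GRCm38.p6 RefSeq places Meg3 at chr12:109540996-109571729, Rian at chr12:109603945-109661716 and Mirg at chr12:109734981-109749458, and Dlk1, expressed from the paternal copy, upstream at chr12:109452485-109463336. Meg3 is a long noncoding RNA, Rian carries many C/D box small nucleolar RNAs, and Mirg is a host of microRNAs. H19, a noncoding RNA of the Igf2 domain, lies on the minus strand at chr7:142575530-142578146.

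These 4 noncoding genes are also precursors of microRNAs, and a few of the mature forms are shown to make clear what the transcripts carry. RefSeq places 16 microRNA genes within H19, Meg3, Rian and Mirg on the same strand. Below, the seed (bases 2 to 8) is in capitals, all sequences are from RefSeq, and they come from H19 (miR-675), Meg3 (miR-770), Rian (miR-370) and Mirg (the others).
mmu-miR-675-5p: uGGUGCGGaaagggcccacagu
mmu-miR-675-3p: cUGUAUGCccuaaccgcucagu
mmu-miR-770-5p: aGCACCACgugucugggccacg
mmu-miR-770-3p: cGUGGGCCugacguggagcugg
mmu-miR-370-5p: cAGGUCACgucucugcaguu
mmu-miR-370-3p: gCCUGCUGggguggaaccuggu
mmu-miR-154-5p: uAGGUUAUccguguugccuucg
mmu-miR-154-3p: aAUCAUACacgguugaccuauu
mmu-miR-453: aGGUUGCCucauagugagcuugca
mmu-miR-496a-5p: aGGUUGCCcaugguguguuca
mmu-miR-410-5p: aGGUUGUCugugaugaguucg
mmu-miR-410-3p: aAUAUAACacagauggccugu
Of the forms hosted by these genes, miR-453 and miR-496a-5p, both from Mirg, share the seed GGUUGCC. The microRNA genes themselves had hardly any reads, with 3 counts within Rian and 9 within Mirg summed over all libraries, and 0 within H19 and Meg3. Of the 10 within Mirg, 9 were rows of the count table. Reads of these genes may also match the host gene, and how such reads were counted is not given in the sources used here. The libraries were made for long RNA, so these counts say nothing of the mature microRNAs.

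Meg3 had 49.1, 35.6 and 29.8 CPM in EV libraries 1, 2 and 3, 59.6, 100.1 and 21.7 CPM in LAP, and 33.3, 111.3 and 5.68 CPM in LIP. Library 2 was the highest of LAP and of LIP, library 3 was the lowest of both, and the 3 groups overlapped. Rian had 116, 108 and 108 CPM in EV, 162, 269 and 73.9 CPM in LAP, and 86.7, 150 and 23.7 CPM in LIP. The EV values of Rian were nearly equal, while LAP and LIP again ran from a low library 3 to a high library 2. Mirg, with 56 to 117 counts in EV, 58 to 182 in LAP and 26 to 153 in LIP, had 2.68, 2.07 and 3.43 CPM in EV, 4.10, 6.54 and 2.15 CPM in LAP, and 2.29, 5.01 and 0.84 CPM in LIP. It followed the order of libraries seen for Rian in LAP and LIP.

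The ratio of the highest to the lowest LIP library was 19.6 for Meg3 and 6.33 for Rian, against 1.65 and 1.08 in EV. Among 10252 genes that averaged at least 50 counts, only 9 had a larger SD of log2 CPM within LIP than Meg3, whose SD was 2.16 against a median of 0.276. Within LIP the SD of Rian was 1.37 and that of Mirg 1.28, larger than in 98.9% and 98.6% of these genes. Within LAP the SD of Meg3 was 1.12, larger than in 99.5% of genes. Within EV that of Rian was 0.061, below the median of 0.137, but those of Meg3 and Mirg were 0.365 and 0.363. The latter were larger than in 91.5% and 91.4% of genes. The libraries with the highest Meg3, LAP 2 and LIP 2, were also those with the highest levels of some noncoding RNAs of other chromosomes, named here after their values were seen. Gas5, a host of small nucleolar RNAs, had 219 CPM in LAP 2 and 335 CPM in LIP 2, and 97.7 to 127 CPM in the other 7 libraries. Snhg1, another such host, had 328 and 366 CPM in these libraries and 105 to 138 CPM in the others. The part of such differences between libraries in the values of Meg3, Rian and Mirg was not tested.

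As the share of a gene in the reads of the 3 genes does not depend on the scaling between libraries, it was compared as well. Meg3 took 21.1% to 29.2% of these reads in EV, 22.2% to 26.6% in LAP, and 27.2%, 41.8% and 18.8% in LIP libraries 1, 2 and 3. The share of 41.8% in LIP 2 (95% exact Clopper-Pearson interval 40.7% to 42.9%) lay above that of every other library, while Rian took 56.3% there and 69.2% to 78.4% elsewhere. Mirg stayed between 1.42% and 2.77% in all 9 libraries. Mean shares of Meg3 were 24.9% ± 4.09 in EV, 25.1% ± 2.51 in LAP and 29.3% ± 11.6 in LIP (SD, n = 3 each), and two-sided exact permutation tests of the 3 genes' shares between groups gave p of 0.5 to 1. The summed level of the 3 genes ran within LIP from 30.3 CPM in LIP 3 to 267 CPM in LIP 2.

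**Figure D2:**
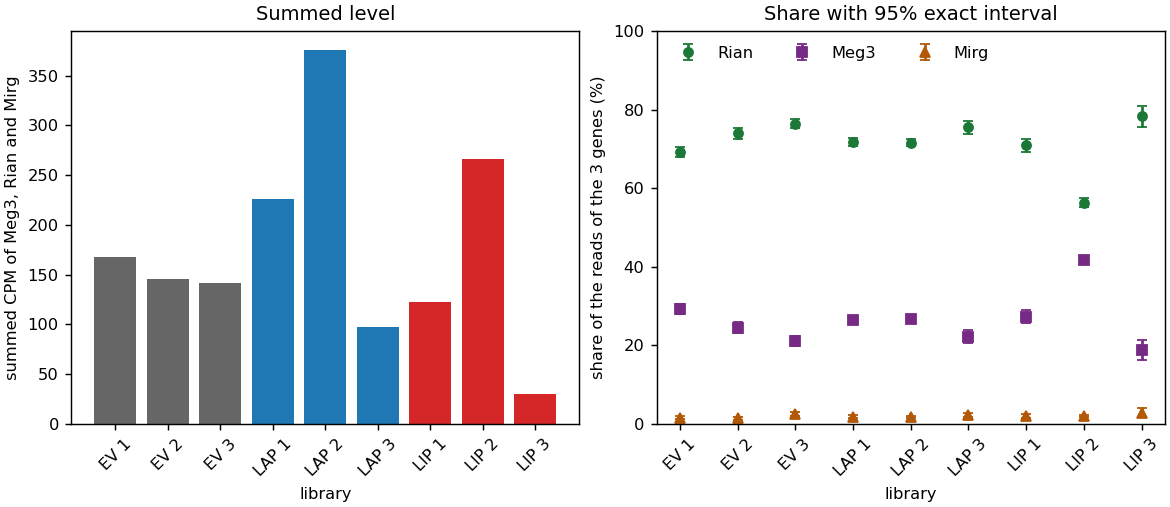
Left, the summed CPM of Meg3, Rian and Mirg in each library, as bars. Right, the share of each gene in their reads, in percent with 95% exact intervals. The sum ran from 30.3 CPM in LIP 3 to 376 CPM in LAP 2, and the Meg3 share stood out in LIP 2 with 41.8%.

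H19 was low, with 63, 10 and 8 counts in EV, 112, 62 and 25 in LAP, and 21, 14 and 2 in LIP. These were 1.96, 0.37 and 0.23 CPM in EV, 3.45, 2.23 and 0.92 CPM in LAP, and 0.86, 0.46 and 0.06 CPM in LIP. Every LAP library was above every LIP library, and EV spanned both groups because of EV 1. In each group library 1 was the highest and library 3 the lowest. Igf2, the fetal growth factor gene that neighbours H19 and is expressed from the paternal copy, had 22, 5 and 7 counts in EV, 26, 6 and 5 in LAP, and 12, 3 and 0 in LIP, and has 5 curated transcripts.

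Peg3, which encodes a zinc finger protein and is expressed from the paternal copy, lies on the minus strand at chr7:6703892-6730462. It had 109, 101 and 66.1 CPM in EV, 96.8, 73.7 and 70.8 CPM in LAP, and 129, 160 and 169 CPM in LIP. All LIP libraries were above all others, while EV and LAP overlapped. Its SD of log2 CPM was 0.207 within LIP, larger than in 34.0% of the genes, and 0.245 within LAP, larger than in 50.1%. Within EV it was 0.391, larger than in 93.0%, so the EV libraries spread widely. Plagl1, also called Zac1, is a zinc finger transcription factor that restrains cell division and binds GC-rich sites, and lies on the plus strand at chr10:13090832-13131694. It had 8.62, 9.48 and 9.64 CPM in EV, 9.93, 7.73 and 5.84 CPM in LAP, and 5.96, 4.69 and 1.84 CPM in LIP. All LIP libraries were below all EV libraries, and LIP 1 was just above LAP 3. Grb10, an adaptor protein that dampens insulin and IGF1 receptor signalling, lies on the minus strand at chr11:11930499-12037428. It had 19.04, 22.0 and 18.0 CPM in EV, 16.6, 14.0 and 27.9 CPM in LAP, and 17.3, 12.4 and 28.2 CPM in LIP. The groups overlapped, and in LAP and LIP library 3 was the highest and library 2 the lowest, the reverse of Meg3 and Rian.

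The promoters of Meg3, where the noncoding unit begins, of Peg3, the gene with the clearest difference between groups, and of Plagl1 are shown as 300 bases each, 250 before and 50 after the start, from RefSeq on GRCm38.p6. Capitals mark a match to GGGGCCCC, a sequence like that bound by PLAGL1. The windows are chr12:109540746-109541045 on the plus strand for Meg3, chr7:6730370-6730669 on the minus strand for Peg3, and chr10:13090582-13090881 on the plus strand for Plagl1.
Meg3: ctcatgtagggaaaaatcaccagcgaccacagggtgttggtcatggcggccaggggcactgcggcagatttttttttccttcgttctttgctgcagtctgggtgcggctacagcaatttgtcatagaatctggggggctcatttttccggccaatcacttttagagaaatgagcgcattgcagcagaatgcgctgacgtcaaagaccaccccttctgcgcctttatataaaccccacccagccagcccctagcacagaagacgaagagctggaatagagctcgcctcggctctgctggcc
Peg3: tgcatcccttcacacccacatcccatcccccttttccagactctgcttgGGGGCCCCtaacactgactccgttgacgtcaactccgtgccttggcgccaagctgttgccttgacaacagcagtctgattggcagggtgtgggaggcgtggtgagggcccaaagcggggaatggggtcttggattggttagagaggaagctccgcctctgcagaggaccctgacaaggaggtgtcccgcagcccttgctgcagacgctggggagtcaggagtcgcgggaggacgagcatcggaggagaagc
Plagl1: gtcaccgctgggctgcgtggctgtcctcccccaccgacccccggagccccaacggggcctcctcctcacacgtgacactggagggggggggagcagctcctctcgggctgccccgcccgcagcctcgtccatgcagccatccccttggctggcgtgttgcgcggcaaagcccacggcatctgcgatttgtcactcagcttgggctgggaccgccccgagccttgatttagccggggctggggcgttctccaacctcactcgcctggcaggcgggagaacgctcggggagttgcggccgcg
RefSeq gave 12 such windows for 8 of the genes, and none was used for H19 and Cdkn1c. On both strands, GGGGCCCC was found in 1 of the 12 windows, that of Peg3, and in 1.08% of 32851 promoters of the same length. TTGCNNAA, which is like the site of C/EBP proteins, was found in 1 of the 12, a window of Mest, and in 10.8% of all promoters. The matches lay in different windows, and a match is a description of letters and not a site. The Plagl1 window was 70.7% G and C and held 26 CpG, the Peg3 window 61.3% and 13, and the Meg3 window 53.7% and 13, against medians of 52.7% and 7 over all promoters.

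LIP is thought to act against LAP at shared DNA sites, and LIP was compared with LAP as well as with EV. Here each line of Cebpb-ko cells received a plasmid for only 1 isoform, so LIP against LAP does not measure LIP acting on LAP. A difference between them cannot by itself be assigned to either isoform. Each comparison was fitted over all genes with at least 1 count in its 6 libraries, which were 18203 for LIP against EV, 18156 for LAP against EV and 18166 for LIP against LAP, and 9 of the 10 genes entered each. The comparisons share groups and are not independent of each other. Standard errors (SE) are those of the log2 fold change, and adjusted p are from the quasi-likelihood test of edgeR, adjusted by the Benjamini-Hochberg method over all genes tested. A two-sided exact permutation test of single genes cannot go below 0.1 with 3 libraries against 3.

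In LIP against LAP, Peg3 rose 1.92-fold, with a log2 fold change of 0.94 (SE 0.223, 95% interval 0.48 to 1.41, adjusted p = 0.0471 from edgeR). It was the only one of the 9 genes past the threshold of 0.05, where 0.209% of all genes tested were higher, 0.837% were lower and 1.05% changed in all. By the exact permutation test, the Peg3 means of 152.9 ± 21.1 CPM in LIP and 80.4 ± 14.3 CPM in LAP (SD, n = 3 each) gave p = 0.1. The call lay near the threshold. It was lost with edgeR's filter on low counts (filterByExpr, adjusted p = 0.166), with a minimum of 10 counts in every library (adjusted p = 0.221), and without LAP 2, LAP 3, LIP 1 or LIP 2 (adjusted p of 0.186, 0.0825, 0.0739 and 0.110), while its log2 fold change stayed between 0.86 and 1.11 when any library was left out. Over all genes, 152 were lower and 38 higher in this comparison. Of such calls, 1 and 1 were left with filterByExpr, 0 and 0 with the minimum of 10 counts, and 6 and 1 without LAP 2, so these losses were not particular to Peg3. Without LAP 3, LIP 1 or LIP 2 there were 344 and 64, 128 and 19, and 73 and 21. H19 had a log2 fold change of -2.27 (SE 0.588, 95% interval -3.50 to -1.05, adjusted p = 0.0731), which is 4.84-fold lower in LIP, and did not pass. Plagl1 had -0.90 (SE 0.367, adjusted p = 0.406), Rian -0.92 (SE 0.453, adjusted p = 0.561), Mirg -0.62 (SE 0.479, adjusted p = 0.763) and Meg3 -0.24 (SE 0.604, adjusted p = 0.928), none past the threshold. H19 passed with DESeq2 (adjusted p = 0.0346), without LAP 3 (adjusted p = 0.00140) and without LIP 3 (adjusted p = 0.0125), and Rian without LAP 3 (log2 fold change -1.25, adjusted p = 0.0482). At an unadjusted p under 0.05 there were 4 of the 9 genes, Peg3, H19, Plagl1 and Dlk1 at its few counts, against 9.28% of all genes. Libraries of LIP and LAP did not overlap for 3 of the 9, H19, Peg3 and Mest at its few counts, against 12.8% of all genes.

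Libraries carry the numbers 1 to 3 in each group. Across genes, a LIP and a LAP library of the same number deviated from their group means together. The pairing by number was decided from these same counts, and the sources used here do not state it. The p-values with the block thus depend on an assumption. With the library number as a replicate block in the model, 4 of the genes were lower in LIP than in LAP and 1 was higher. Of all genes, 4.79% were lower and 1.72% higher. The log2 fold change was -2.37 for H19 (SE 0.370, adjusted p = 5.44e-07), -1.10 for Rian (SE 0.181, adjusted p = 1.83e-06), -0.996 for Plagl1 (SE 0.243, adjusted p = 0.00276) and -0.81 for Meg3 (SE 0.205, adjusted p = 0.00416), all from edgeR. Peg3 kept its log2 fold change of 0.95 (SE 0.180, adjusted p = 4.33e-05 from edgeR). Mirg had -0.79 (SE 0.272, adjusted p = 0.0647) and did not pass. Between libraries of the same number, Rian in LIP was 0.535, 0.558 and 0.321 times its level in LAP, Plagl1 was 0.600, 0.606 and 0.315 times, and Peg3 was 1.33, 2.18 and 2.39 times. For Meg3 these ratios were 0.559, 1.11 and 0.262, so the pair of libraries numbered 2 went the other way, and without the block its log2 fold change turned to 0.30 without LAP 2 and 0.29 without LIP 3. H19 was 0.248 and 0.206 times as high in pairs 1 and 2, and in LIP 3 it was below the floor of 3 counts.

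**Figure D3:**
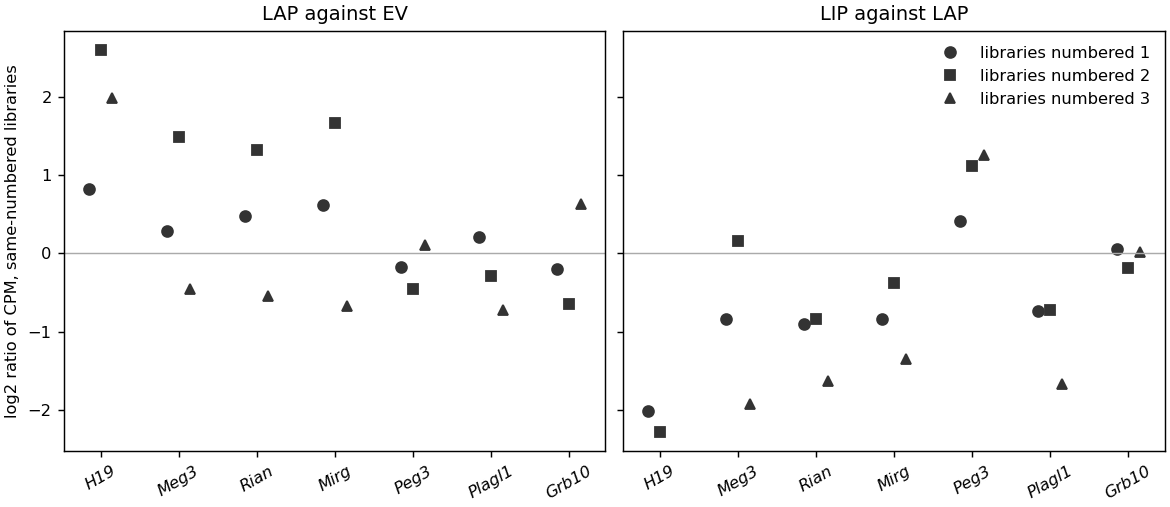
Log2 ratio of CPM between libraries of the same number, LAP over EV on the left and LIP over LAP on the right, for 7 genes. For H19 the LIP 3 library is under 3 counts and not drawn. In LIP against LAP, Rian, Mirg and Plagl1 were lower and Peg3 higher in all 3 pairs, Grb10 stayed near 0, and in LAP against EV H19 was higher in all 3.

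In LIP against EV, 0 of the 9 genes passed the threshold, where 0.396% of all genes did. DESeq2 and the edgeR exact test also gave 0. At an unadjusted p under 0.05 there were 2, Peg3 and Plagl1, with 11.0% of all genes, and these were also the 2 whose libraries did not overlap, with 15.6% of all genes. Peg3 had a log2 fold change of 0.73 (SE 0.199, 95% interval 0.30 to 1.16, adjusted p = 0.156), and Plagl1 had -1.16 (SE 0.345, 95% interval -1.90 to -0.41, adjusted p = 0.201), both from edgeR. For either gene the exact permutation test gave p = 0.1. The log2 fold changes of H19, Meg3, Rian and Mirg were -0.93, 0.39, -0.35 and -0.01, with SEs of 0.806, 0.653, 0.431 and 0.482 and adjusted p of 0.706 or more. Without EV 1 that of H19 turned to 0.59, without LIP 2 that of Meg3 turned to -0.97, and without LIP 3 that of Rian turned to 0.11, so their direction rested on single libraries.

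In LAP against EV, 0 of the 9 genes passed, where 0.0606% of all genes did, and DESeq2 and the edgeR exact test gave 0 as well. Only H19 had an unadjusted p under 0.05, with 3.27% of all genes, and libraries did not overlap for 0 of the 9, with 7.57% of all genes. The log2 fold change of H19 was 1.35 (SE 0.603, 95% interval 0.06 to 2.64, adjusted p = 0.918 from edgeR). Same-numbered LAP and EV libraries also deviated together, and with the replicate block H19 was the only one of the genes that was higher in LAP, against 0.132% of all genes, with a log2 fold change of 1.54 (SE 0.314, adjusted p = 0.0356 from edgeR). The pairing of LAP and EV libraries was likewise an assumption drawn from the counts. H19 in LAP was 1.76, 6.04 and 3.95 times its level in EV in pairs 1 to 3. Without EV 1, the EV library with the most H19, its log2 fold change was 2.86 (adjusted p = 0.00115) without the block. Meg3, Rian and Mirg had log2 fold changes of 0.65, 0.59 and 0.63, with SEs of 0.368, 0.309 and 0.336 (adjusted p = 0.918 each). Without LAP 3, where all 3 were lowest among LAP libraries, Meg3 had 1.04 (adjusted p = 0.0379) and Rian 0.94 (adjusted p = 0.0382).

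Grb10 had log2 fold changes of -0.03 in LIP against EV (95% interval -0.60 to 0.54), -0.02 in LAP against EV (-0.52 to 0.48) and -0.01 in LIP against LAP (-0.65 to 0.64), and the intervals leave room for changes of these sizes in either direction. Over the genes that averaged at least 20 counts in a comparison, the median log2 fold change was -0.02 over 6 genes in LIP against EV, 0.59 over 7 in LAP against EV and -0.62 over 7 in LIP against LAP, where it was 0.02, 0.00 and 0.01 over all genes. Meg3, Rian and Mirg, parts of a common domain, made up 3 of the genes behind these medians.

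**Figure D4:**
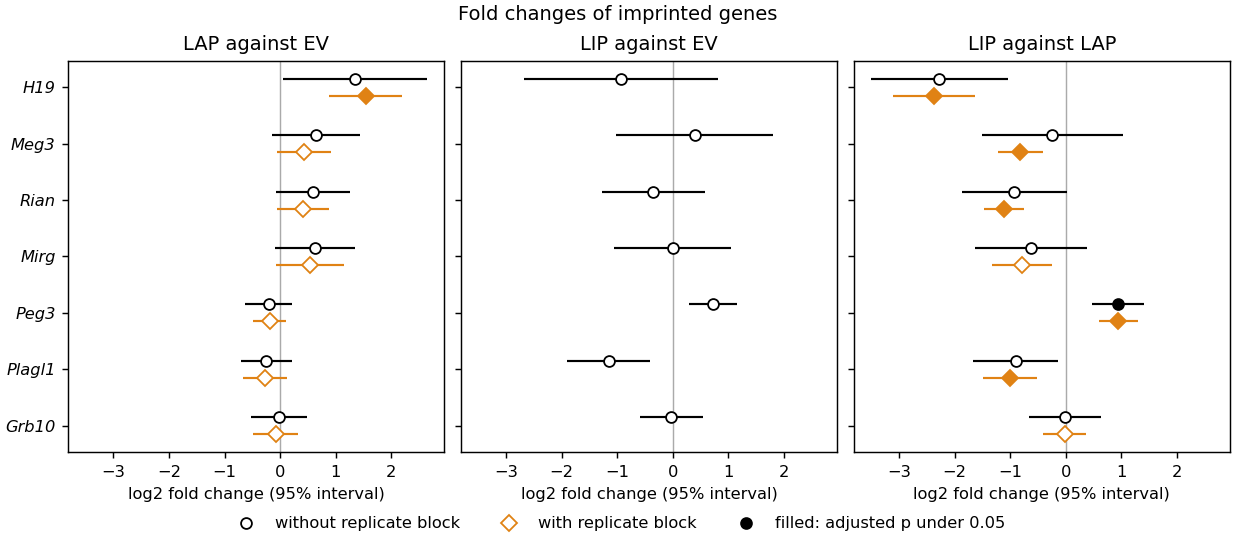
Log2 fold change with its 95% interval for 7 genes in 3 comparisons. Black circles are without and orange diamonds with the replicate number as a block, filled where the adjusted p is under 0.05. Diamonds are not drawn for LIP against EV, where the libraries were not taken as paired. Without the block only Peg3 in LIP against LAP was past the threshold, and in LIP against LAP the intervals of Rian, Meg3 and Plagl1 were narrower with the block.

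Profiles over the 9 libraries were compared by the root mean square difference of log2 CPM, each centred on its own mean, among 10251 genes averaging at least 50 counts. Rian and Mirg were 0.269 apart, Meg3 and Rian 0.440, and Meg3 and Mirg 0.527, while Meg3 and Grb10 were 1.56 apart and Meg3 and Peg3 1.39. Rian was thus among the 3 genes most like Meg3 and Mirg among the 3 most like Rian. The gene nearest to Rian was E330013P06, at 0.199, which was also 0.454 from Meg3. Others near Meg3, Rian or Mirg were Plag1, at 0.254 from Rian and 0.310 from Mirg, and Gdnf, at 0.423 from Meg3. Wnt10b was 0.292 from Mirg. Plag1, which encodes a zinc finger factor of the PLAGL1 family, had 4.06 to 5.16 CPM in EV, 3.33 to 7.04 CPM in LAP and 1.13 to 5.05 CPM in LIP. The nearest to Peg3 were Daam2, Akap5 and Dab2 at 0.123, 0.124 and 0.139, and Daam2, a formin, had 101 to 136 CPM in EV, 100.2 to 111 CPM in LAP and 174 to 242 CPM in LIP. The nearest to Plagl1 were Mt1, Slc5a7 and Cspg4 at 0.113, 0.113 and 0.140, and Mt1, a metallothionein, had 145 to 161 CPM in EV, 101 to 163 CPM in LAP and 37.3 to 106 CPM in LIP. The nearest to Grb10 were B4galt6, Wnt9a and Scel at 0.125, 0.139 and 0.141. These distances describe 9 libraries that share depth and library effects.

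Of a wider list of 66 imprinted genes, 57 were tested in LIP against EV and 58 in each of the other comparisons. In LIP against LAP 2 were lower and 2 higher, against 0.837% and 0.209% of all genes tested. In LIP against EV 1 was higher, against 0.0659% of all genes, and in LAP against EV 0 passed. At an unadjusted p under 0.05 there were 11 of 58 in LIP against LAP, 12 of 57 in LIP against EV and 5 of 58 in LAP against EV, against 9.28%, 11.0% and 3.27% of all genes. 3 of those that passed, Ppp1r9a, Pon3 and Asb4, lie on chromosome 6 within the domain of Peg10 and Sgce, from 4902872 to 5165661, 5216256 to 5256285 and 5383386 to 5433022. Asb4, a subunit of ubiquitin ligases, had 1069, 884 and 1311 counts in EV, 1960, 1576 and 1208 in LAP, and 294, 113 and 50 in LIP. Its groups were all apart, with LAP highest and LIP lowest, and the log2 fold change was -3.21 in LIP against LAP (SE 0.459, adjusted p = 0.00204) and -2.60 in LIP against EV (adjusted p = 0.0536), from edgeR. Ppp1r9a, which encodes the actin-binding protein neurabin, had 14.8, 10.6 and 13.6 CPM in EV, 13.1, 10.5 and 13.3 CPM in LAP, and 25.5, 46.5 and 37.9 CPM in LIP. It was higher in LIP than in LAP and EV, with log2 fold changes of 1.59 (adjusted p = 0.00557) and 1.50 (adjusted p = 0.0172) from edgeR. Pon3, a lactonase of the paraoxonase family, had 45, 52 and 33 counts in EV, 9, 24 and 14 in LAP, and 50, 88 and 169 in LIP, and its log2 fold change in LIP against LAP was 2.68 (adjusted p = 0.00702 from edgeR).

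Thus within this domain Asb4 fell and Ppp1r9a and Pon3 rose in LIP against LAP, and Peg10 and Sgce, with 0 and at most 1 count per library, could not be followed. Dio3, the deiodinase that inactivates thyroid hormone, closes the Dlk1-Dio3 domain at chr12:110279230-110281097 and had 34, 4 and 19 counts in EV, 65, 25 and 15 in LAP, and 5, 3 and 0 in LIP. Its log2 fold change in LIP against LAP was -3.54 (SE 0.707, adjusted p = 0.0214 from edgeR). Ndn, encoding necdin, a growth suppressor of the Prader-Willi domain, had 522, 408 and 554 counts in EV, 742, 611 and 316 in LAP, and 252, 131 and 56 in LIP, with a log2 fold change of -1.77 in LIP against LAP (SE 0.430, adjusted p = 0.0530) that did not pass without the block and did with it (-2.01, adjusted p = 2.07e-11). With the block Asb4, Dio3, Ndn, Peg12, Dcn and Htr2a were lower and Ppp1r9a and Pon3 higher in LIP than in LAP, which are 6 and 2 of the 58, against 4.79% and 1.72% of all genes. None of the 4 calls without the block held with filterByExpr (adjusted p of 0.127 to 0.181) or without LAP 2 (0.0727 to 0.117). Over all genes, of 152 lower and 38 higher, these settings left 1 and 1, and 6 and 1, so the losses were not particular to these genes. With a minimum of 10 counts in every library, those of Asb4 and Ppp1r9a were lost as well (adjusted p = 0.213 each from edgeR), and that of Dio3 was lost without LAP 1 or LIP 1 (adjusted p of 0.0533 and 0.0501 from edgeR). The call of Ppp1r9a in LIP against EV was lost with filterByExpr (adjusted p = 0.129), with a minimum of 10 counts in every library (adjusted p = 0.156), and without EV 2 or LIP 2 (adjusted p of 0.114 and 0.0519), all from edgeR. Over all genes, of 60 lower and 12 higher, these settings left 3 and 1, 0 and 0, 20 and 2, and 26 and 4.

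**Figure D5:**
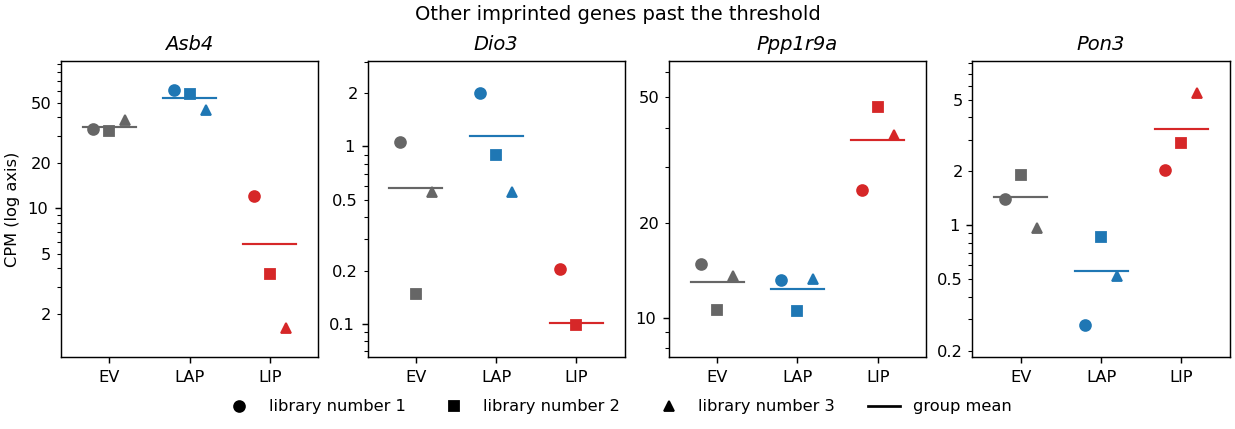
Level in CPM (log axis) of the 4 other imprinted genes past the threshold in LIP against LAP, in each library, with lines for group means. Asb4 and Dio3 were lower and Ppp1r9a and Pon3 higher in all LIP than in all LAP libraries, and Dio3 in LIP 3 had 0 counts and is not drawn.

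The other neighbours of the 10 genes gave no call without the block. Copg2, which overlaps Mest on the opposite strand, had 568 to 1205 counts per library, and since the kit keeps no strand, reads of the overlap cannot be assigned. In the current RefSeq, Rtl1 at chr12:109564900-109604418 overlaps the end of Meg3 and the start of Rian. How reads of these overlaps were counted was not tested, which limits the levels and shares of Meg3 and Rian as well. Cobl next to Grb10 had 928 to 2176 counts, Kcnq1ot1, the antisense transcript of the Cdkn1c domain, had 435 to 1903 with the highest in LIP 2, and Begain had 12 to 48. Rtl1, Phlda2, Zim1, Usp29 and Phactr2 had at most 22 counts in any library. Igf2r, the receptor that clears IGF2, had 1946 to 5715 counts, and its log2 fold change in LIP against EV was -0.66 (SE 0.205, adjusted p = 0.225 from edgeR).

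Of 14 signalling and cell cycle partners, 1 passed in LIP against LAP, against 1.05% of all genes, and 0 in the other comparisons. At an unadjusted p under 0.05 there were 2 in LIP against LAP, 3 in LIP against EV and 0 in LAP against EV, against 9.28%, 11.0% and 3.27% of all genes. Irs2, an adaptor of the insulin and IGF1 receptors, rose 1.94-fold in LIP against LAP (log2 fold change 0.96, SE 0.219, adjusted p = 0.0406 from edgeR), with 1772, 2367 and 2897 counts in LIP and 1375, 969 and 1338 in LAP. This call too was lost with filterByExpr (adjusted p = 0.165), with a minimum of 10 counts in every library (adjusted p = 0.213), and without LAP 1, LAP 2, LIP 1 or LIP 2 (adjusted p of 0.103, 0.184, 0.0808 and 0.0733), all from edgeR. As given for Peg3, few calls over all genes were left with filterByExpr, with this minimum and without LAP 2. In LIP against EV, Irs2 passed with DESeq2 (log2 fold change 0.65, adjusted p = 0.0145) and with the edgeR exact test (0.64, adjusted p = 0.0284). Igf2bp3, an RNA-binding protein named for Igf2 mRNA, had -1.04 (SE 0.271, adjusted p = 0.0754), and with the block it passed (-1.12, adjusted p = 1.36e-06). Of 16 factors that keep imprints, 0 passed in any comparison. At an unadjusted p under 0.05 there were 2 of 14 tested in LIP against EV, 1 of 14 in LAP against EV and 1 of 13 in LIP against LAP, against 11.0%, 3.27% and 9.28% of all genes. Zfp57, a zinc finger protein that holds methylation at imprinted regions, had 1074, 3808 and 1848 counts in LIP and 1329, 1494 and 980 in LAP, with a log2 fold change of 0.83 (SE 0.296, adjusted p = 0.295 from edgeR) and, with the block, of 0.70 (adjusted p = 0.00646). LIP 2, the library with the most Meg3 among LIP libraries, also had the most Zfp57. The same library had the most Gas5 and Snhg1, as given above, and a link between Zfp57 and Meg3 was not tested.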

How the data were processed

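RNA of Cebpb-ko MEFs with EV, LAP or LIP (3 libraries per group) was prepared with the TruSeq RNA v2 kit, which keeps no strand, and sequenced as 50 bp single-end reads. The authors aligned the reads with TopHat 1.4.1, counted them per gene symbol with HTSeq 0.5.4 on mm10 with a RefSeq annotation, and deposited raw counts. The strand setting and the treatment of reads with several matches are not given in the sources used here. Of the value columns, 0 were left unused, and 20746 of 23337 symbols were found in RefSeq on GRCm38.p6. Totals per library were 24839139 to 33522082 counts.

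The 10 genes and the other gene lists were chosen with earlier results of these data known. Each pair of groups was tested with edgeR 4.0.16 under R 4.3.3 (quasi-likelihood test, TMM, its 6 libraries, genes with at least 1 count, no covariates) and Benjamini-Hochberg adjustment, with a threshold of 0.05. SE is the ratio of the log2 fold change to the root of F. All 10 genes were named. Of other imprinted genes, those past the threshold and neighbours of the 10 were named, with Ndn added after its values were seen, and of partners and maintenance factors up to 3. Shares have exact Clopper-Pearson intervals, and single genes and shares were compared by two-sided exact permutation tests. Exon lengths are from GENCODE M21. The test was tried on simulated data. Alternatives were DESeq2 1.42.0 and its size factors, the edgeR exact test, alone and together with DESeq2, scaling by totals, filterByExpr, a minimum of 10 counts in every library, 1 model of all 9 libraries, a replicate block by number, leaving out each library and an adjusted p under 0.01. No wild-type MEFs were analysed here, and the proteome was not used here.

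Replicate numbers come from the labels. Over 11535 genes averaging at least 20 counts, the deviations of same-numbered libraries from their group means had r of 0.553, 0.411 and 0.463 between LIP and LAP and of 0.520, 0.208 and 0.512 between LAP and EV, all above 0.1, so that the numbers were taken to pair these libraries and the values with the block are given. Between LIP and EV r was 0.286, -0.119 and 0.230, and the libraries were not taken as paired. A pairing by number across all 3 groups was thus not found by this rule. The rule used the counts that were then tested, so the block is an assumption and not a known feature of the design. Promoter, microRNA and gene positions are from RefSeq on GRCm38.p6. Plots were made in Python 3.11.15 with matplotlib 3.10.9.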

Additional observations from a re-analysis of the deposited data

How the results depend on the processing

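The 9 genes tested include Dlk1 and Mest at their few counts. Of 385 log2 fold changes of the 9 under an alternative, 341 kept their direction and their side of the threshold. A further 13 came past it, 6 lost it and 25 had another sign, none of them past it. In LIP against EV, Mirg, at -0.01, was 0.0075 with DESeq2 size factors, 0.066 with total counts only, 0.017 with filterByExpr and with at least 10 counts in every library, and 0.0085 with DESeq2. The libraries were not taken as paired there. With the replicate block, Meg3 turned to -0.41, and 1 of the genes was lower, Plagl1 with -1.28 (adjusted p = 0.0379 from edgeR). Grb10 in LIP against LAP was 0.041 with total counts only. When 1 library was left out, log2 fold changes in LIP against EV ran from -1.69 to 0.59 for H19, -0.97 to 0.94 for Meg3, -1.003 to 0.11 for Rian, -0.82 to 0.44 for Mirg and -0.40 to 0.20 for Grb10. In LAP against EV they ran from -0.38 to 0.18 for Grb10 and -0.22 to 0.025 for Ppp1r9a. Those of Dlk1, at its few counts, ran there from -0.20 to 4.08. In LIP against LAP they ran from -1.61 to 0.30 for Meg3 and -0.38 to 0.39 for Grb10. The cause was not tested.

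Of counts, in LIP against LAP the genes lower were 1 with DESeq2, 4 with the replicate block and 0 to 2 without a library, and those higher were 0 with filterByExpr, with at least 10 counts in every library and at an adjusted p under 0.01, and 0 to 1 without a library. Genes without overlap were 1 with at least 10 counts in every library and 3 to 5 without a library. With a library left out fewer libraries are compared, so groups come apart more easily without any difference. The share of all genes without overlap was not taken in these settings, so the larger counts do not show more separation of these genes. Of other imprinted genes, 0 were lower with filterByExpr and with at least 10 counts, 6 with the block, 1 at an adjusted p under 0.01 and 0 to 4 without a library, and 0 were higher with filterByExpr and with at least 10 counts, and 0 to 2 without a library. In LIP against EV, other imprinted genes lower were 2 with DESeq2, 1 with the edgeR exact test, 1 with both, 1 with all 9 libraries, 3 with the block and 0 to 2 without a library, and those higher were 0 with filterByExpr, with at least 10 counts and at an adjusted p under 0.01, and 0 to 1 without a library. In LAP against EV, 1 of the genes was higher with the block and 0 to 2 without a library. Without a library 0 to 5 did not overlap there, with the same limit on overlap as above. Over all genes, filterByExpr left 1 lower and 1 higher in LIP against LAP (main 152 and 38), 3 and 1 in LIP against EV (60 and 12) and 1 and 2 in LAP against EV (6 and 5), at least 10 counts in every library left 0 throughout, and the block gave 871 and 312, 402 and 65, and 30 and 24. Without a library, 6 to 344 of all genes were lower and 1 to 138 higher in LIP against LAP. These were 20 to 246 and 2 to 137 in LIP against EV, and 2 to 21 and 4 to 41 in LAP against EV. DESeq2 gave 198 and 57 in LIP against LAP and 248 and 73 in LIP against EV. There the edgeR exact test gave 242 and 59, both 204 and 53, and all 9 libraries 127 and 30. An adjusted p under 0.01 left 30 and 6 in LIP against LAP and 11 and 2 in LIP against EV.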
